A study of Mus musculus with 41 samples.

Results

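Lgr5+ progenitors of the E11.5 intestine that lack Id2 were compared with the whole EpCAM+ epithelium of Id2KO embryos. The comparison rests on 6 of the 41 libraries of the series, taken by their titles: 3 labelled Lgr5+EpCAM+ and 3 labelled EpCAM+, both at embryonic day 11.5 (E11.5) and both Id2KO, with libraries of the same replicate number treated as pairs, although the labels do not say that they come from 1 embryo. All 6 are small intestine of mixed C57BL/6 CD1 background, each from 250 sorted cells of 1 embryo, and the Lgr5+ cells were gated on an Lgr5-EGFP reporter. The labels do not give the Id2 allele, nor whether the EpCAM+ gate left out Lgr5+ cells, so the EpCAM+ libraries are read here as bulk epithelium. Wild-type EpCAM+ cells (3 libraries) and Id2KO EpCAM- mesenchyme (3 libraries) of the same stage serve as reference levels. Lgr5+ and EpCAM+ cells at E13.5, 4 libraries each from pools of 6 to 12 embryos and with no genotype on the label, give the same contrast at a later stage. Because stage and genotype change together between those contrasts, their parts in any difference cannot be told apart.

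Lgr5 is the R-spondin receptor that marks crypt base stem cells in the adult gut and a subset of epithelial cells in the embryonic gut tube, and it is itself a target of Wnt signalling. Id2 encodes a helix-loop-helix protein without a DNA-binding region, which pairs with E proteins and keeps basic helix-loop-helix factors off their E-box sites. At E11.5 the gut tube is a pseudostratified epithelium, not yet folded into villi, and is being patterned from stomach to colon by Wnt, FGF, BMP, hedgehog and retinoic acid signals.

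Id2 was low in all 6 libraries, at 108, 159 and 129 CPM (gene counts scaled to equal library totals) in Lgr5+ replicates 1 to 3 and at 160, 159 and 182 in EpCAM+ replicates 1 to 3, against 5308 to 6600 in the wild-type EpCAM+ libraries. Depth was even, from 33.0 to 36.2 M counts in genes a library, with 14947 to 16237 genes detected. Epithelial markers were high throughout, with Epcam at 1401 to 1437 CPM in Lgr5+ and 1694 to 1775 in EpCAM+ libraries. Leukocyte markers set EpCAM+ replicates 1 and 2 apart: the summed level of 17 markers was 1300 and 1640 CPM there, 11.1 in EpCAM+ replicate 3, and 9.42, 6.2 and 3.41 in the Lgr5+ libraries. Wild-type EpCAM+ replicates 1 to 3 held 1370, 310 and 141 CPM of these markers. Ptprc, the antigen shared by all leukocytes, was at 0 in the 3 Lgr5+ libraries and in EpCAM+ replicate 3, and at 12.9 and 29.1 CPM in EpCAM+ replicates 1 and 2. C1qa, a macrophage complement gene, read 120, 133 and 0.06 CPM in the EpCAM+ libraries and 0.12 or less in the Lgr5+ libraries. The summed level of 19 mesenchyme markers was 47.4, 154 and 41.7 CPM in the Lgr5+ libraries, 30.9, 28.4 and 20 in the EpCAM+ libraries, 64.8 to 77.6 in wild-type EpCAM+ cells, and 2890 to 3540 in sorted Id2KO mesenchyme. In Lgr5+ replicate 2 the mesenchymal genes Tcf21 and Lum reached 24.3 and 16.7 CPM, above every other library of either epithelial Id2KO group. Cpa1, a pancreatic digestive enzyme, was at 459 CPM in EpCAM+ replicate 2 and at 0.58 or less in the other 5 libraries.

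**Figure D1:**
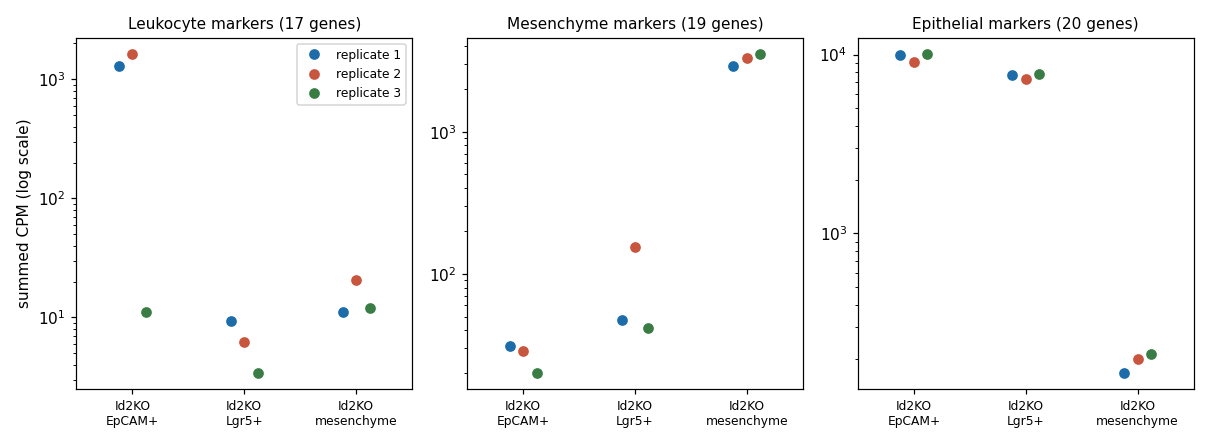
Summed CPM (log scale) of leukocyte, mesenchyme and epithelial marker lists in each Id2KO library at E11.5, 1 point a library, coloured by replicate number. Leukocyte markers were at 1300 and 1640 CPM in EpCAM+ replicates 1 and 2 and at 3.41 to 20.8 in every other library drawn.

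With the pair as a block, edgeR's quasi-likelihood test called 615 of 14238 tested genes (4.32%), 306 higher (2.15%) and 309 lower (2.17%) in Lgr5+ cells, at a Benjamini-Hochberg adjusted p under 0.05. Without the block the count fell to 318. Without the block and without EpCAM+ replicates 1 and 2, which carry the leukocyte signal, it was 387. In all 3 pairs the difference exceeded 1 on the log2 scale for 169 higher genes, and it was below -1 for 144 lower genes. The groups did not overlap in CPM for 2752 of the 14238 tested genes (19.3%), among them 291 of the higher and 274 of the lower genes. In bulk samples, fewer cells of a type and less RNA per cell cannot be told apart.

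Lgr5 read 119, 73.8 and 118 CPM in Lgr5+ replicates 1 to 3 and 6.95, 2.40 and 7.49 in EpCAM+ replicates 1 to 3. The groups did not overlap, and the difference of 4.28 ± 0.24 (log2 ± SE, edgeR adjusted p = 0.00023) checks the sort, since the gate selected on this gene's reporter. Wnt11, a ligand best known for the non-canonical Wnt branch, was at 115.4, 168 and 164 CPM against 11.5, 8.14 and 9.79. Every Lgr5+ library lay far above every EpCAM+ library, by 3.88 ± 0.23 (edgeR adjusted p = 0.00023), and the wild-type EpCAM+ level of 6.74 to 9.10 CPM was close to that of the Id2KO bulk. Smoc2, a secreted matricellular protein that modulates BMP and growth factor signals and marks adult crypt base stem cells, read 957, 1167 and 1100 CPM against 322, 227 and 211. It rose by 2.07 ± 0.18 (edgeR adjusted p = 0.00095), with no overlap, while wild-type EpCAM+ cells held 0.72 to 1.46 CPM and Id2KO mesenchyme 129 to 219. Onecut2, a transcription factor of proximal gut endoderm, was at 77.5, 39.0 and 77.0 CPM in Lgr5+ and at 395, 354 and 550 in EpCAM+ libraries. It was lower in every pair, by -2.83 ± 0.16 (edgeR adjusted p = 0.00023), and wild-type EpCAM+ cells lay between both groups at 148 to 173 CPM. Id2 itself did not pass the test (-0.39 ± 0.15, edgeR adjusted p = 0.22).

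**Figure D2:**
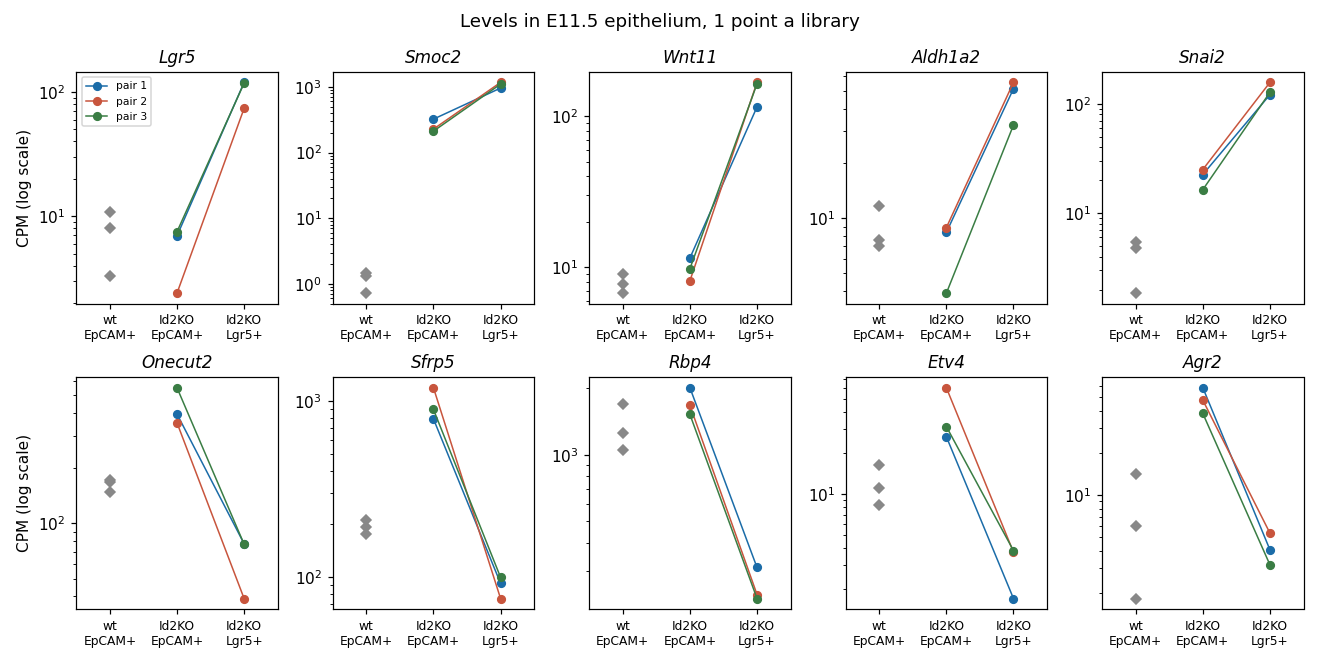
Levels of 10 genes (CPM, log scale, 1 point a library) in wild-type EpCAM+ (grey), Id2KO EpCAM+ and Id2KO Lgr5+ libraries at E11.5, with lines joining the libraries of a pair. The upper genes rose and the lower genes fell in all 3 pairs, without overlap between the Id2KO groups. The genes drawn were picked among called genes, and 19.3% of all tested genes did not overlap between these groups.

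Ligands, an inhibitor, receptors and targets of the Wnt pathway were among the called genes. For comparison, 2.15% of all tested genes were called higher and 2.17% lower. Wnt11 and Wnt6 rose among 6 tested ligands of 19 listed (6 of the 19 were at 0 in all 6 libraries). Wnt6, a ligand of the canonical branch, read 6.30, 6.63 and 13.3 CPM in Lgr5+ cells and 0, 0.03 and 0 in EpCAM+ cells, so it was at or near 0 in every bulk library (edgeR adjusted p = 0.0021). Wnt5a and Wnt5b, which are also made by mesenchyme, did not pass, at 0.93 ± 0.36 and 1.76 ± 0.42 (edgeR adjusted p = 0.24 and 0.062). Among 9 tested secreted inhibitors only Sfrp5, a decoy that binds Wnt ligands, was called. It read 92.0, 75.4 and 99.5 CPM against 792, 1191 and 896, so every EpCAM+ library lay far above every Lgr5+ library, and it fell by 3.45 ± 0.17 on the log2 scale (edgeR adjusted p = 0.00018). Wild-type EpCAM+ cells held 176 to 210 CPM of Sfrp5. Fzd5 and Ror1, a Frizzled and a Wnt5a receptor, were lower among 15 tested receptors, with Fzd5 at 25.6, 18.9 and 15.8 CPM against 69.7, 64.7 and 63.7 (-1.78 ± 0.18, edgeR adjusted p = 0.0017).

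Of 19 tested targets and feedback genes of the canonical branch, 4 rose (Lgr5, Sp5, Nkd1 and Tnfrsf19), Myc fell and 14 were not called, with a median log2 difference of 0.84 beside 0.02 for all tested genes. The rise of Lgr5 was set by the gate on its reporter, and both the count and the median include it. The share called over all tested genes was 4.32%. Sp5, a transcription factor induced by Wnt, read 15.8, 18.7 and 16.7 CPM against 1.86, 0.39 and 3.87. The groups were well apart (3.41 ± 0.67, edgeR adjusted p = 0.029), and the wild-type EpCAM+ libraries held 17.1 to 19 CPM, as much as the Id2KO Lgr5+ cells. Axin2, the feedback gene most often used to read the pathway, was at 2.70, 3.39 and 7.21 CPM against 0.83, 0.92 and 2.07 and did not pass (1.75 ± 0.63, edgeR adjusted p = 0.19). Myc went the other way, at 22.6, 32.5 and 20 CPM against 45.2, 125 and 55.8 (-1.51 ± 0.20, edgeR adjusted p = 0.0049). Wnt11, Wnt6, Sfrp5, Fzd5 and Lgr5 kept their calls in 9 alternative settings (DESeq2, RLE scaling, no filter, no replicate block, wild-type or mesenchyme libraries added to the fit, and each pair left out), whereas Ror1, Sp5, Nkd1 and Myc lost theirs without the replicate block (adjusted p = 0.059, 0.069, 0.24 and 0.071). Tnfrsf19 lost its call without pair 1 or pair 2 (adjusted p = 0.096 and 0.084), and Sp5 without pair 1 (adjusted p = 0.14). Ror1 and Nkd1 each lost theirs in 5 of the 9 settings.

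Promoters are shown for Wnt11 and Sfrp5, the ligand and the inhibitor with the smallest adjusted p, from RefSeq (GRCm38.p6, 250 bases before to 50 after the start of the gene). Capitals mark the TCF/LEF core CTTTGAT and the E-box CANNTG, each searched on both strands. The Wnt11 window is chr7:98834862-98835161 on the plus strand and the Sfrp5 window chr19:42202203-42202502 on the minus strand.
Wnt11: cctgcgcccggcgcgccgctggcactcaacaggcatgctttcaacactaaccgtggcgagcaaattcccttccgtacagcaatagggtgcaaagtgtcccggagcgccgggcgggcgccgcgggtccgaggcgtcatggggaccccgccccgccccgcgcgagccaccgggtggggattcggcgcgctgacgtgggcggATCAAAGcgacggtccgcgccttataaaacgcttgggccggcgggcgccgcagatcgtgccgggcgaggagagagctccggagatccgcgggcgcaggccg
Sfrp5: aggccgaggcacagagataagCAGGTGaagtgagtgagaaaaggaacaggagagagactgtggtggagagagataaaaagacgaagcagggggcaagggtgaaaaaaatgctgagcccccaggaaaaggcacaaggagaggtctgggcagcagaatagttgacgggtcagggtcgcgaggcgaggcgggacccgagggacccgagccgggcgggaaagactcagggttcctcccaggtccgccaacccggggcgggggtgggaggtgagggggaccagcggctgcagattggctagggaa
The Wnt11 window held 1 TCF/LEF core and 0 E-boxes, and the Sfrp5 window 1 E-box and 0 TCF/LEF cores. Among tested genes with a promoter in the table (10437 of 14238), 2.51% held the TCF/LEF core and 63.8% an E-box. The shares were 2.86% and 66.7% for the 210 higher genes with a promoter, and 3.60% and 71.2% for the 222 lower genes, near those of all tested genes.

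Genes that mark adult crypt base stem cells were called only as rises: 6 of 27 tested were higher (Lgr5, Smoc2, Tnfrsf19, Prom1, Slc12a2 and Lrig1) and 0 lower, with a median of 0.28. Lgr5 is again counted despite the gate on its reporter, and Tnfrsf19 also stands in the Wnt target list. Lrig1, a brake on ErbB receptors, read 20.6, 16.9 and 27.7 CPM against 4.12, 2.87 and 6.99 and rose by 2.25 ± 0.29 (edgeR adjusted p = 0.0051), without overlap. Slc12a2, an ion co-transporter of crypt cells, was at 181.5, 117 and 164 CPM against 86.8, 50.9 and 75.7, higher in each pair by about the same step (1.09 ± 0.12, edgeR adjusted p = 0.0024; 0.079 without the replicate block). Ascl2, a Wnt-driven factor that sets the adult stem cell programme, stayed low in both groups, at 3.69, 3.30 and 1.81 CPM against 3.74, 3.35 and 3.12 (-0.31 ± 0.59, edgeR adjusted p = 0.86). Olfm4, another adult marker, was at 2.38 CPM or less in all 6 libraries. Sox9, a progenitor transcription factor, was at 228 to 406 CPM in Lgr5+ and 239 to 477 in EpCAM+ libraries (edgeR adjusted p = 0.53). Of 29 tested cell cycle genes 1 was called (Cenpe, a mitotic kinesin, 0.80 ± 0.13, edgeR adjusted p = 0.013, and 0.11 without pair 1). That is near the 4.32% of all tested genes, and the median was 0.06.

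Among BMP genes, 2 of 7 tested ligands and 2 of 12 tested modulators (Smoc1 and Smoc2) rose. Of 7 tested Id and BMP response genes, the targets Msx2 and Gata2 rose, Id1 and Id3 fell and 3 were not called (median -0.39). Calls over all tested genes made up 4.32%. BMPs signal through SMAD proteins that induce Id and Msx genes. The ligands were Bmp3 and Bmp7. Bmp3, which antagonises other BMPs, read 18.0, 20.8 and 19.4 CPM in Lgr5+ cells and 0.23, 0.78 and 0 in EpCAM+ cells (6.26 ± 0.86, edgeR adjusted p = 0.0066; 0.20 without pair 1). Wild-type EpCAM+ cells also held little Bmp3, at 0.03 to 0.69 CPM. Smoc1, the paralogue of Smoc2, was at 45.1, 60.0 and 40.8 CPM against 9.03, 13.2 and 4.51 and rose by 2.51 ± 0.25 (edgeR adjusted p = 0.0016). Msx2, a homeobox target of BMP, was at 47.6, 38.1 and 67.0 CPM against 10.6, 5.24 and 15.2 (2.35 ± 0.23, edgeR adjusted p = 0.0016). Id1 read 152, 209 and 209 CPM against 273, 298 and 432, lower in Lgr5+ cells without overlap (-0.84 ± 0.14, edgeR adjusted p = 0.013; 0.098 without the replicate block). Id3 was at 907, 923 and 926 CPM against 1161, 1226 and 1568, also without overlap (-0.54 ± 0.11, edgeR adjusted p = 0.036; 0.11 without the block), with wild-type EpCAM+ cells at 227 to 315. Bmp7 and Gata2 also lost their calls without the block (adjusted p = 0.082 and 0.058), whereas Smoc1, Smoc2 and Msx2 kept theirs in those 9 settings. In all, Bmp7 was not called in 4 of the 9 and Gata2 in 5. The E protein Tcf4 rose by 0.59 ± 0.13 (edgeR adjusted p = 0.047; 0.24 without the block), but its call was lost in 6 of the 9 settings. Tcf3 and Tcf12, the other tested E proteins, did not pass.

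Of 15 tested retinoic acid genes, 5 rose, among them Aldh1a1, Aldh1a2, Cyp26b1 and Rarb, Rbp4 fell and 9 were not called (median 0.64). Beside this, 2.15% of all tested genes were called higher and 2.17% lower. Aldh1a2, the main retinoic acid synthase of the embryo, was at 51.4, 55.7 and 32.4 CPM against 8.35, 8.87 and 3.87, above every EpCAM+ library of either genotype (2.74 ± 0.21, edgeR adjusted p = 0.00061). Sorted Id2KO mesenchyme held a mean of 660 CPM of Aldh1a2. Rarb, a retinoic acid receptor and target, read 149, 165 and 131 CPM against 69.8, 74.6 and 60.7 (1.08 ± 0.11, edgeR adjusted p = 0.0022). Rbp4, the carrier that exports retinol, showed the smallest adjusted p of the members named here: 310, 234 and 224 CPM against 2006, 1670.4 and 1521, a fall of 2.80 ± 0.10 on the log2 scale (edgeR adjusted p = 2.8e-05). Aldh1a2 and Rbp4 kept their calls in those 9 settings, and Aldh1a1 and Cyp26b1 lost theirs without the replicate block (adjusted p = 0.059 and 0.081).

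Most called genes of the FGF pathway were lower in Lgr5+ cells. FGF receptors act through the RAS-ERK cascade, which induces Etv4, Etv5, Dusp6 and the Sprouty genes. Of 15 tested FGF genes, 6 fell (Fgf9, Spry1, Spry2, Dusp6, Etv4 and Etv5), Fgfr1 rose and 8 were not called, with a median of -1.02. The share called lower over all tested genes was 2.17%. Etv4, an ETS transcription factor, read 1.7, 3.73 and 3.83 CPM against 26.4, 60.7 and 31.4, with wild-type EpCAM+ cells between at 8.31 to 16.4 (-3.70 ± 0.29, edgeR adjusted p = 0.00061). Etv5 was at 1.91, 2.27 and 4.42 CPM against 18.6, 33.8 and 19.2 (-3.13 ± 0.40, edgeR adjusted p = 0.0046). Dusp6, an ERK phosphatase, was at 47.1, 48.7 and 37.8 CPM against 109, 211 and 139, lower in every pair (-1.77 ± 0.17, edgeR adjusted p = 0.0016). The receptor Fgfr2 was level, at 191 to 205 CPM in Lgr5+ and 183 to 211 in EpCAM+ libraries. Of 19 tested immediate early and stress genes, 5 immediate early genes fell (Fos, Junb, Egr1, Ier2 and Zfp36), 0 rose and 14 were not called. Egr1 read 209, 183 and 192 CPM against 473, 365 and 435 (-1.16 ± 0.11, edgeR adjusted p = 0.0013), without overlap. Egr1, Junb, Dusp6, Etv4 and Etv5 kept their calls in those 9 settings, while Fgf9, Spry1 and Ier2 lost theirs without the replicate block (adjusted p = 0.087, 0.078 and 0.066) and Spry2 without any 1 of the 3 pairs (adjusted p = 0.15, 0.083 and 0.070).

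**Figure D3:**
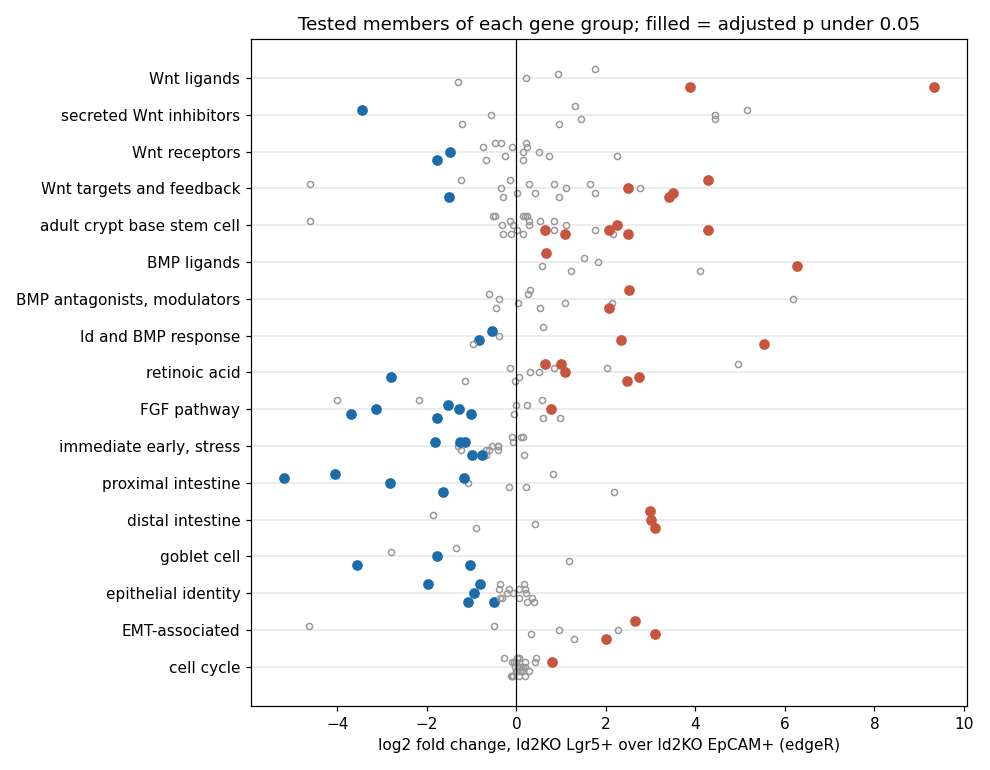
Log2 fold change of Id2KO Lgr5+ over Id2KO EpCAM+ cells for each tested member of 17 gene groups; filled points have an edgeR adjusted p under 0.05 and open points do not. Rises lie to the right, as in the distal intestine group (3 of 6), and falls to the left, as in the proximal intestine group (5 of 10). Over all tested genes 4.32% were called.

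Of 10 tested proximal intestine genes 5 fell (Pdx1, Onecut2, Onecut3, Gata4 and Apoa4), 0 rose and 5 were not called. Of 6 tested distal intestine genes 3 rose, among them Osr2 and Cubn, 0 fell and 3 were not called. Over all tested genes 2.15% were called higher and 2.17% lower. Gata4, a proximal identity factor, was at 50.3, 39.1 and 51.6 CPM against 87.5, 108 and 114 (-1.17 ± 0.15, edgeR adjusted p = 0.0051). Pdx1, a duodenal and pancreatic factor, was at 0.85, 0.46 and 1.6 CPM against 2.94, 42.4 and 23.7, and its call was lost without pair 2 or without pair 3 (adjusted p = 0.088 and 0.67). Cubn, an ileal uptake receptor, was at 80.7, 46.9 and 60.9 CPM against 6.60, 4.71 and 12.9 (3.01 ± 0.29, edgeR adjusted p = 0.0016). Osr2, a zinc finger factor, was at 155, 225 and 190 CPM against 37.1, 18.6 and 18.2 (2.98 ± 0.31, edgeR adjusted p = 0.0034), and the call was lost without pair 3 (adjusted p = 0.18). Wild-type EpCAM+ cells held 231 to 255 CPM of Osr2, above every Id2KO library of either group. Posterior Hox genes were not measurable, since 9 of 16 were at 0 in all 6 libraries and 0 passed the filter. The general hindgut and midgut factor Cdx2 read 7.48, 14.7 and 10.8 CPM against 9.63, 14.1 and 11.1 (edgeR adjusted p = 0.86).

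Of 12 tested foregut and stomach genes Irx3 and Irx5 rose, Pitx1 fell and 9 were not called, and of 5 tested pancreas genes Isl1 rose, Nkx6-2 fell and 3 were not called. Among all tested genes 4.32% were called, and lists this small give rough shares. Nkx6-2, a homeobox gene, read 0, 0.14 and 0.03 CPM in Lgr5+ cells and 9.32, 45.4 and 56.0 in EpCAM+ cells (edgeR adjusted p = 0.00023). Gkn3, a gastric secreted protein outside these lists, was at 0.36, 0.98 and 0.21 CPM against 24.9, 13.9 and 43.2 (-5.74 ± 0.72, edgeR adjusted p = 0.0045; 0.18 without pair 1). Both were higher in EpCAM+ replicate 3 than in replicate 2, the library with Cpa1, whereas Pdx1 and Ehf were highest in replicate 2. The part of pancreatic RNA in any of these falls was not tested. Irx3, a homeobox gene, was at 15.2, 13.3 and 20.2 CPM against 1.8, 1.23 and 2.9 (3.06 ± 0.37, edgeR adjusted p = 0.0036), and its call was lost with the mesenchyme or the wild-type libraries in the fit (adjusted p = 0.15 and 0.11). Irx5 and Pitx1 lost theirs without the replicate block (adjusted p = 0.068 and 0.22).

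Goblet cell, liver and epithelial identity genes were called mainly as falls, beside 2.17% of all tested genes called lower. Of 6 tested goblet cell genes 3 fell (Agr2, Tff3 and Fcgbp) and 0 rose, and of 9 tested liver genes 3 fell (Apoa1, Ttr and Trf) and Serpina1b rose. Agr2, a folding enzyme of mucus-secreting cells, read 4.06, 5.34 and 3.17 CPM against 58.5, 47.7 and 38.3 (-3.57 ± 0.25, edgeR adjusted p = 0.00038). Apoa1, the main protein of high-density lipoprotein, was at 141, 123 and 120 CPM against 1310.5, 528 and 764 (-2.70 ± 0.21, edgeR adjusted p = 0.00061). Of 20 tested genes of epithelial identity 5 fell (Krt8, Krt18, Cldn7, Tjp3 and Elf3) and 0 rose. Krt8, a keratin of simple epithelia, was at 640, 602 and 656 CPM against 1101, 1166 and 1317 (-0.95 ± 0.10, edgeR adjusted p = 0.0018), while Cdh1 (E-cadherin) read 134 to 169 CPM against 109 to 147 and was not called. Klf5, a factor of proliferating gut epithelium, fell by 1.37 ± 0.13 on the log2 scale (edgeR adjusted p = 0.0015). Agr2, Apoa1, Ttr, Krt8, Cldn7 and Klf5 kept their calls in those 9 settings, while Tff3, Fcgbp, Trf, Serpina1b, Krt18 and Elf3 lost theirs without the replicate block (adjusted p = 0.19, 0.061, 0.32, 0.12, 0.26 and 0.21).

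Vimentin, Snai2 and Sparc, genes linked to epithelial-mesenchymal transition, rose among 9 tested of that group, beside 2.15% of all tested genes. Vim, an intermediate filament protein, was at 571, 644 and 688 CPM against 60.5, 143 and 43.1 (3.10 ± 0.35, edgeR adjusted p = 0.013; 0.16 without pair 1), and Id2KO mesenchyme held 269 to 430. Every Lgr5+ library exceeded every mesenchyme library in Vim. Snai2, a transcriptional repressor, was at 121, 157 and 127 CPM against 22.6, 25.1 and 16.4 (2.64 ± 0.15, edgeR adjusted p = 0.00023), with wild-type EpCAM+ cells at 1.85 to 5.41 and Id2KO mesenchyme at a mean of 320. Sparc, a matricellular protein, was at 171, 215 and 187 CPM against 34.7, 99.8 and 28.8 (2.0 ± 0.27, edgeR adjusted p = 0.0074; 0.069 without the replicate block and 0.11 without pair 1). Of the 19 mesenchyme markers, 12, 3 and 10 were under 1 CPM in Lgr5+ replicates 1 to 3, and the 14 tested had a median log2 difference of 1.32. Col1a1, the main fibrillar collagen, read 0.97, 2.73 and 0.06 CPM against a mean of 165 in mesenchyme, while Tcf21 read 6.21, 24.3 and 7.35 against 500. Islr, at a mean of 66.1 CPM in mesenchyme, was at 8.84 to 14.3 in Lgr5+ and 0.06 or less in EpCAM+ libraries. Dcn, a matrix proteoglycan, was the only called member of the 14, at 5.78, 13.6 and 3.62 CPM against 0.14, 0.84 and 0.22 (edgeR adjusted p = 0.0079; 0.10 without pair 2). Vim was higher in Lgr5+ replicate 3, with a mesenchyme marker sum of 41.7 CPM, than in replicate 2, with 154, and Snai2 and Sparc were highest in replicate 2. The part of mesenchymal RNA in these rises was not tested.

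Hedgehog ligands moved in opposite directions. Shh, at 115.2, 77.0 and 99.7 CPM against 54.5, 33.9 and 65.9, rose by 0.92 ± 0.16 (edgeR adjusted p = 0.018), and Ihh, at 78.7, 97.5 and 124 CPM against 125, 169 and 154, fell by 0.63 ± 0.13 on the log2 scale (edgeR adjusted p = 0.031). Both calls were lost without the replicate block (adjusted p = 0.19 and 0.20), and each was lost in 4 of the 9 alternative settings. Notch1 was the only called gene of 16 tested in the Notch group, at 3.82, 2.76 and 4.18 CPM against 17.0, 25.1 and 13 (-2.35 ± 0.38, edgeR adjusted p = 0.012; 0.075 without pair 2). Among imprinted and oncofetal genes, H19 and Igf2 fell and Plagl1 rose of 13 tested, with Igf2 not called without the block (edgeR adjusted p = 0.25). Plagl1, a zinc finger factor, was at 35.6, 36.2 and 29.4 CPM against 3.74, 6.41 and 6.97 (2.57 ± 0.29, edgeR adjusted p = 0.0031), and H19 was at 346, 348 and 479 CPM against 587, 675 and 751 (-0.83 ± 0.10, edgeR adjusted p = 0.0036). Ephrins and their receptors (17 tested), Sox factors (11) and BMP receptors (7) had 0 calls in either direction. Of all tested genes 4.32% were called, so 0 calls in lists of this size, or 1 of 16 for Notch, lie near that share.

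The 12 largest rises were in genes at or below 1.74 CPM in the Id2KO bulk, namely Slc45a3, Sema3e, Wnt6, Atp13a4, Lce6a, Islr, Tacr3, Bmp3, Adamts16, Cobl, Adamts3 and Ntm. Sema3e, a secreted guidance ligand, read 23.3, 10.7 and 19.2 CPM in Lgr5+ cells and 0, 0.03 and 0 in EpCAM+ cells (edgeR adjusted p = 0.00050). Slc45a3, a membrane transporter, was at 7.42, 4.22 and 5.04 CPM against 0 in all 3 EpCAM+ libraries, at least 66.1-fold higher against a floor of 3 counts per library. Tacr3, a neurokinin receptor, and Adamts16, a metalloprotease, were at 6.24 to 13.7 and 20 to 29.4 CPM in Lgr5+ cells and at 9.33 to 13.6 and 10.6 to 21.0 CPM in wild-type EpCAM+ cells. Both were at 1.74 CPM or less in the Id2KO bulk. The calls of Adamts16 and Adamts3 were lost without the replicate block (adjusted p = 0.050 and 0.059).

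Several of the 12 largest falls were led by the EpCAM+ libraries with leukocyte markers. Cx3cr1, a chemokine receptor of macrophages, was at 0, 0.75 and 0 CPM in Lgr5+ cells and at 61.6, 85.9 and 1.91 in EpCAM+ cells. Ccl9, Lrrc33, Fxyd5 and Ednrb had the same profile, with 0.36 to 1.66 CPM in EpCAM+ replicate 3. Cx3cr1, Ccl9 and Fxyd5 lost their calls without the replicate block (adjusted p = 0.14, 0.074 and 0.059). The part of leukocyte RNA in these falls was not tested. Of 10 tested leukocyte markers 6 fell and 0 rose, beside 2.17% of all tested genes called lower. In pair 3 the differences of Lyz2 and Fcgr3 were 0 and 0.16 on the log2 scale. Cd79b, a B cell receptor component, was at 0 in all 3 Lgr5+ libraries and at 13.1, 13.7 and 2.90 CPM in EpCAM+ cells, at least 112-fold lower against the same floor. Its level was thus also highest in the EpCAM+ libraries with leukocyte markers. L3mbtl4, a chromatin protein, was at 0.15, 0 and 0 CPM against 6.52, 3.18 and 11.5 (edgeR adjusted p = 0.012), and Ehf, an epithelial ETS factor, at 0, 1.52 and 0 CPM against 1.86, 16.3 and 3.10 (edgeR adjusted p = 0.040; 0.40 without the replicate block).

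Called genes often stood, in wild-type EpCAM+ cells, between the means of both Id2KO groups. This was so for 214 of the 306 higher and 238 of the 309 lower genes. Over all 306 and all 309, the wild-type mean was nearer to that of Id2KO Lgr5+ cells for 113 and 126. These are counts of positions with no test, and the share among all tested genes was not counted. Genes called for a gap between groups more easily hold another group's mean within that gap.

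The same contrast at E13.5 gave 106 higher (0.794% of 13355 tested) and 128 lower genes (0.958%). Of the E11.5 higher genes tested at both stages, 28 of 284 were also higher at E13.5, which is 9.86% of that list and 28.9% of the 97 E13.5 higher genes tested at E11.5. Of the lower genes 45 of 285 were shared, 15.8% of that list and 36.3% of the 124 E13.5 lower genes tested at E11.5. The sign was the same at both stages for 200 of the 284 and 232 of the 285. The share of like signs among all genes tested at both stages was not counted. Calls went in opposite directions for 5 genes, named here after their values were seen: Enpp1, Lipa and Plat were higher at E11.5 and lower at E13.5, and Esr1 and Kcne3 lower at E11.5 and higher at E13.5. Esr1 also followed the genotype label in both tissues at E11.5. Its mean was 105 CPM in Id2KO EpCAM+ cells and 118 in Id2KO mesenchyme, against 5.65 and 0.198 in the wild-type counterparts. At E13.5 the mean was 4.55 CPM in Lgr5+ and 0.089 in EpCAM+ cells. The source of the Esr1 reads was not tested. Genes called at both stages included Lgr5, Smoc2, Sp5, Tnfrsf19, Slc12a2, Osr2, Cubn and Vim as rises and Onecut2, Gata4, Sfrp5, Rbp4, Apoa1, Ttr and Spry2 as falls. The Lgr5 reporter was gated on at both stages. Sfrp5 fell by 3.34 on the log2 scale at E13.5 (edgeR adjusted p = 0.0078), from a mean of 56.8 CPM in EpCAM+ to 5.59 in Lgr5+ cells.

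The difference between the effects of both stages was called for 124 genes (0.807% of 15358 tested by edgeR), 56 with the higher log2 fold change at E11.5 (0.365%) and 68 with the higher one at E13.5 (0.443%). Lgr5 was separated further at E11.5 in Id2KO cells, by 2.3 ± 0.28 (edgeR adjusted p = 0.00092): E13.5 EpCAM+ libraries held 21.4 to 24.8 CPM, above all E11.5 bulk libraries, while E13.5 Lgr5+ libraries held 83.6 to 94.7. Smoc2 showed the opposite, a larger step at E13.5 from a far lower level, 1.46 to 2.63 CPM in EpCAM+ and 23.9 to 37.9 in Lgr5+ cells (difference -1.74 ± 0.31, edgeR adjusted p = 0.014). Ascl2 rose at E13.5, from a mean of 9.23 to 32.4 CPM, and not at E11.5 (difference -2.14, edgeR adjusted p = 0.029). Smoc1, Sparc and Osr2 had a larger rise at E11.5, by 3.69 ± 0.79, 2.20 ± 0.34 and 1.97 ± 0.35 (edgeR adjusted p = 0.040, 0.0054 and 0.015). Egr1, Zfp36, Notch1 and Myc were lower only in the E11.5 contrast, and their differences between stages were called (edgeR adjusted p = 0.0015, 0.0023, 0.0026 and 0.042). Wnt11 was at 1.59 to 3.19 CPM in Lgr5+ and 0 to 0.83 in EpCAM+ cells at E13.5 and was not called there (edgeR adjusted p = 0.37), but its difference between stages did not pass either (edgeR adjusted p = 0.65).

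**Figure D4:**
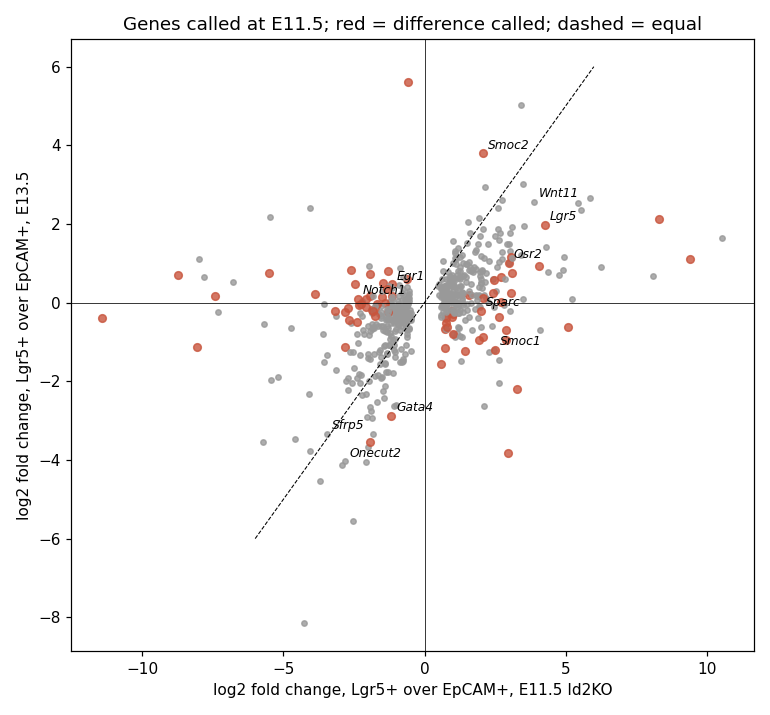
Log2 fold change of Lgr5+ over EpCAM+ cells at E13.5 (vertical) against E11.5 Id2KO (horizontal), for genes called at E11.5 and tested at both stages, 1 point a gene; red points have a called difference between stages and the dashed line marks equal effects. Sfrp5 lies on the line, Lgr5 and Osr2 to the right of it and Smoc2 above it.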

How the data were processed

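The 23 embryonic libraries of the series were read; adult libraries were not used here. The deposited files hold the authors' raw counts for 23366 gene symbols and 5 category totals, which were removed before library sizes and tests. Per the submitters' processing notes alignment tools included STAR 2.3.1z13 and SAMtools 1.2, counting used HTSeq 0.6.1p1, the build was mm9, and bcl2fastq 1.8.4 and the authors' DESeq2 1.6.3 are also listed; annotation and strand setting are not given in the sources used here, so overlapping and antisense genes and near-identical copies are uncertain. Per the labels' protocols, poly(A) RNA was amplified over 15 cycles and read as single-end 50 bp, without molecular identifiers. In the 6 main libraries 12.0 to 16.9% of reads had no gene and 17.7 to 21.2% aligned to several places; no files were copies of each other.

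edgeR 4.0.16 (R 4.3.3) used filterByExpr, TMM scaling, robust quasi-likelihood tests and Benjamini-Hochberg adjustment over all tested genes. The E11.5 comparison had the replicate number as a block, since same-numbered Lgr5+ and EpCAM+ libraries deviated together (correlations 0.24, 0.33 and 0.16; other pairs -0.22 to -0.02) and the submitters' files of one number share an identifier; the labels do not state a shared embryo. At E13.5 the same-numbered correlations were 0.04, 0.28, 0.09 and 0.12, and those of other pairs -0.16 to 0.11. Each E13.5 Lgr5+ library was closest to the EpCAM+ library of its number, but both ranges overlap. No block was used there, since the pools are not stated to pair. The difference of effects was fitted over 14 libraries with the block within E11.5. Levels are plain CPM, log2 differences of pairs add 0.5 CPM, and errors after ± are standard errors. The E11.5 test was tried on counts simulated from its own fitted model with pair effects. Such data cannot support the choice of block or show how the test handles mixed, amplified libraries.

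Named genes were Lgr5, Smoc2, Wnt11, Onecut2 and Id2, the 12 called genes with the largest rise and the 12 with the largest fall that reached at least 5 CPM, the same sign in 3 pairs and no overlap, and up to 6 members per gene list by smallest p. With the block, p-values at E11.5 rest on the scatter of the differences within 3 pairs. At E13.5 they rest on the spread between libraries from pools of 6 to 12 embryos. The test of the difference between stages rests on both. Cpa1, Fgfr1, Ascl2, Axin2, Olfm4, Cdx2, Fgfr2, Cdh1 and other members named with levels outside that rule were chosen after their values were seen. Some list members are not reported here. Members and lists were chosen with earlier results of these data known. DESeq2 1.42.0, other scalings, filters and left-out libraries were alternatives.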

Additional observations from a re-analysis of the deposited data

Results flagged for a closer look

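The Lgr5+ effect differed between E11.5 Id2KO and E13.5 for 20 of the named genes by edgeR's test of the difference (log2, E11.5 minus E13.5). Stage and genotype change together in it. It was positive for Lgr5 (2.3), Osr2 (1.97), Sparc (2.20), Smoc1 (3.69), Adamts3 (5.67), Lce6a (6.5) and Sema3e (12.49). For Gata4 the difference was 1.69, since the fall was larger at E13.5 (-2.88) than at E11.5 (-1.17). It was negative for Smoc2 (-1.74), Myc (-1.67), Egr1 (-1.64), Zfp36 (-1.64), Ihh (-1.25), Notch1 (-2.46), Cd44 (-5.95), Btc (-2.76), Ehf (-5.46), L3mbtl4 (-7.58), Lyve1 (-9.29) and Cd79b (-10.93). The sizes for Sema3e, Lce6a, Adamts3, Cd79b, Lyve1, L3mbtl4, Ehf, Cd44 and Btc rest on a group at or near 0 and depend on how zeros are fitted.

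Among these genes, 3 had 1 library far from the other 3 of its E13.5 group. Sema3e was at 1.43 CPM in EpCAM+ replicate 3 and at 0.19 or less in the others. Cd79b was at 0 CPM in Lgr5+ replicate 1 and at 3.22 to 3.87 in the others. Egr1 was at 334 CPM in EpCAM+ replicate 4 and at 266 to 267 in the others. The nominal rate at which this rule flags a group by chance is about 1 in 20, and it was not measured in these data.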

How the results depend on the processing

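Alternatives changed how many genes were called. For the E11.5 Id2KO comparison the 615 calls became 1539 with DESeq2, 318 with no replicate block and 349 with the mesenchyme libraries in the fit; leaving out a pair gave 321 to 1154, lowest without pair 1 and highest without pair 3. RLE size factors, no filter and the wild-type libraries stayed within 1.5 times (620, 800 and 754). Added after seeing the data, all with no replicate block, fits without EpCAM+ replicates 1 and 2 called 387 genes, with the lone EpCAM+ library assumed to vary like the others, and fits without 1 library called 64, 55 and 61 (Lgr5+ replicates 1 to 3) and 194, 384 and 475 (EpCAM+ replicates 1 to 3). Of 113 named genes called, 33 were called in the 9 settings named first (those added later left aside), and without the block 47 named calls were lost. Where a lost call is given above for 1 setting, other settings could lose it too. Krt18 and Fcgbp were not called in 5 of the 9, and Fgf9 in 4. No named gene reversed in those 9, but all reuse libraries of the main fit, and a reversal needed a call in either fit. So this says little about how stable the directions are. With the mesenchyme libraries in the fit, Onecut2 was not called (adjusted p = 0.078). Without EpCAM+ replicates 1 and 2, Fcgr3 and Mrc1 reversed to 5.39 and 0.46 (log2), neither called. At E13.5 the 234 calls became 466 with DESeq2, 312 with the replicate block, which the main fit did not use there, and 157 to 218 without 1 library. The 124 differences between stages became 375 with DESeq2, 199 with the replicate block within both stages, 94 without any block, and 59 to 129 without 1 library or E11.5 pair. The cause was not tested. With 3 embryos a group, small differences pass only if very even. Intervals cover scatter among these libraries, and amplified reads are not independent molecules.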

Other observations

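Sex-linked transcripts matched between libraries of the same number. Xist, the X-inactivation RNA, was at 735 and 874 CPM in Lgr5+ and EpCAM+ replicate 1 and at 1.48 or less in the other 4 libraries, while the Y-linked Ddx3y was at 0.17 or less in replicate 1 and at 121 to 144 in replicates 2 and 3. Pair 1 therefore differs from the other pairs in sex, which the block absorbs.

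Krt15, a keratin of basal cells in stratified epithelia, was at 11.1, 16.6 and 11.5 CPM in Lgr5+ and 2.37, 2.04 and 1.33 in EpCAM+ libraries and at 0.06 or less in wild-type EpCAM+ cells (2.75 ± 0.41, edgeR adjusted p = 0.0089; 0.40 with the mesenchyme libraries in the fit and 0.072 without pair 2). Isl1, a LIM homeobox factor, was at 18.5, 12.6 and 12.7 CPM against 0.66, 1.2 and 2.35 (3.47 ± 0.54, edgeR adjusted p = 0.011; 0.058 without pair 2). Dpp4, a brush border peptidase, was at 425, 409 and 425 CPM against 202, 125 and 157, a rise among enterocyte genes that otherwise fell or were not called (1.37 ± 0.15, edgeR adjusted p = 0.0023; 0.072 with the mesenchyme libraries in the fit).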
